A study of Mus musculus with 6 samples.

Results

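The genes described here are 33 genes of fatty acid oxidation and PPAR-alpha signalling, chosen by symbol: enzymes of mitochondrial and peroxisomal beta-oxidation, enzymes of ketone bodies, the receptor itself and genes it is known to induce. All 33 were found by Ensembl identifier among the 37991 genes of the count tables, and all 33 passed the filter on low counts. They were followed in liver and liver tumour of mice by RNA sequencing, in 3 groups of 2 libraries. Control livers came from mice with the TgAlbCre transgene, in which the albumin promoter drives Cre recombinase in hepatocytes. KAP1-knockout livers and tumours came from TgAlbCreKap1lox mice, in which the same Cre inactivates Trim28, the gene of the co-repressor KAP1. Every mouse, controls included, carried Cre and had a high-fat diet for 27 weeks before it was killed at 35 weeks of age, so no group shows liver without the diet. By the mouse codes in the labels, KAP1-knockout liver 1 and tumour 1 came from 1 mouse (mouse 1 below) and KAP1-knockout liver 2 and tumour 2 from another (mouse 2). The labels do not say how the 4 mice were housed or bred, and the p-values below measure only the spread between these 6 samples.

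Fatty acids are oxidised in mitochondria after activation to acyl-CoA and transfer across the inner membrane as carnitine esters, and each turn of the spiral removes an acetyl-CoA through dehydrogenation, hydration, a further dehydrogenation and thiolysis. Peroxisomes shorten very long chains first by a parallel route. In liver, the acetyl-CoA feeds the Krebs cycle or is turned into ketone bodies for export. PPAR-alpha is a nuclear receptor for fatty acids that pairs with RXR and induces many of these enzymes in fasting and on fat-rich diets.

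Gene counts totalled 39723997 to 62178752 per library. Trim28 stood at 32.5 and 35.9 CPM (counts scaled to a common library size, here with TMM factors) in the control livers, at 5.06 and 6.02 CPM in the KAP1-knockout livers and at 5.22 and 4.59 CPM in the tumours. The 9 hepatocyte markers found of 10 listed, albumin the most abundant, summed to 108974 to 117407 CPM in the 4 livers and to 52209 and 69515 CPM in tumours 1 and 2. The 11 macrophage markers summed to 581 to 616 CPM in the livers and to 286 and 346 CPM in the tumours. Summed over 10 endothelial markers the livers held 314 to 355 CPM and the tumours 230.4 and 211 CPM, and over 10 stellate cell or fibroblast markers 402 to 502 CPM and 226 and 389 CPM. No gene of any marker list was called in KAP1-knockout against control liver. The defining hepatocyte marker Alb averaged 67947, 59164 and 26524 CPM in control liver, KAP1-knockout liver and tumour. Adipocyte markers reached 20.8 CPM at most, in control liver 2, and the 6 striated muscle markers together at most 0.0908 CPM. Lymphocyte markers summed to 2.87 to 9.43 CPM in the livers and to 5.04 and 8.89 CPM in the tumours. Of the 10 tested, 10 had a log2 fold change above 0 in tumour against control liver and 7 against KAP1-knockout liver. Cholangiocyte markers summed to 18.6 to 37.5 CPM in the livers and to 5.21 and 23.8 CPM in the tumours. Exocrine pancreas markers reached 30.7 and 38.4 CPM in KAP1-knockout liver 2 and tumour 2, against 5.16 to 9.83 CPM elsewhere. The part of these marker levels in the tumour comparisons below was not tested. In such bulk samples, fewer cells of a type and less RNA per cell cannot be told apart.

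Per kilobase of merged exons, the members spanned over 2 orders of magnitude in control liver. Acaa1b, a peroxisomal thiolase, and Acaa2, the mitochondrial thiolase, stood highest at 433 ± 153 and 426 ± 123 CPM per kilobase (mean ± SD, n = 2, as in every mean below). Acsl1, the main long-chain acyl-CoA synthetase of liver, followed at 355 ± 69.1 CPM per kilobase, and Acadm, the medium-chain dehydrogenase, at 211 ± 42.9. Ppargc1a, a co-activator of PPAR-alpha, was lowest at 3.25 ± 1.53 CPM per kilobase, next to the kinase gene Pdk4 at 3.27 ± 0.652. Of the 32 pairs of neighbours in this order, 24 differed by no more than the larger SD of the pair. In KAP1-knockout liver the same held for 25 pairs and in tumour for 25. Acaa2 led the order in KAP1-knockout liver at 419.8 ± 78.8 and in tumour at 424 ± 29.1 CPM per kilobase. In tumour, Ehhadh ranked 2, against 5 in control liver, and Acsl1 ranked 10, against 3.

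**Figure D1:**
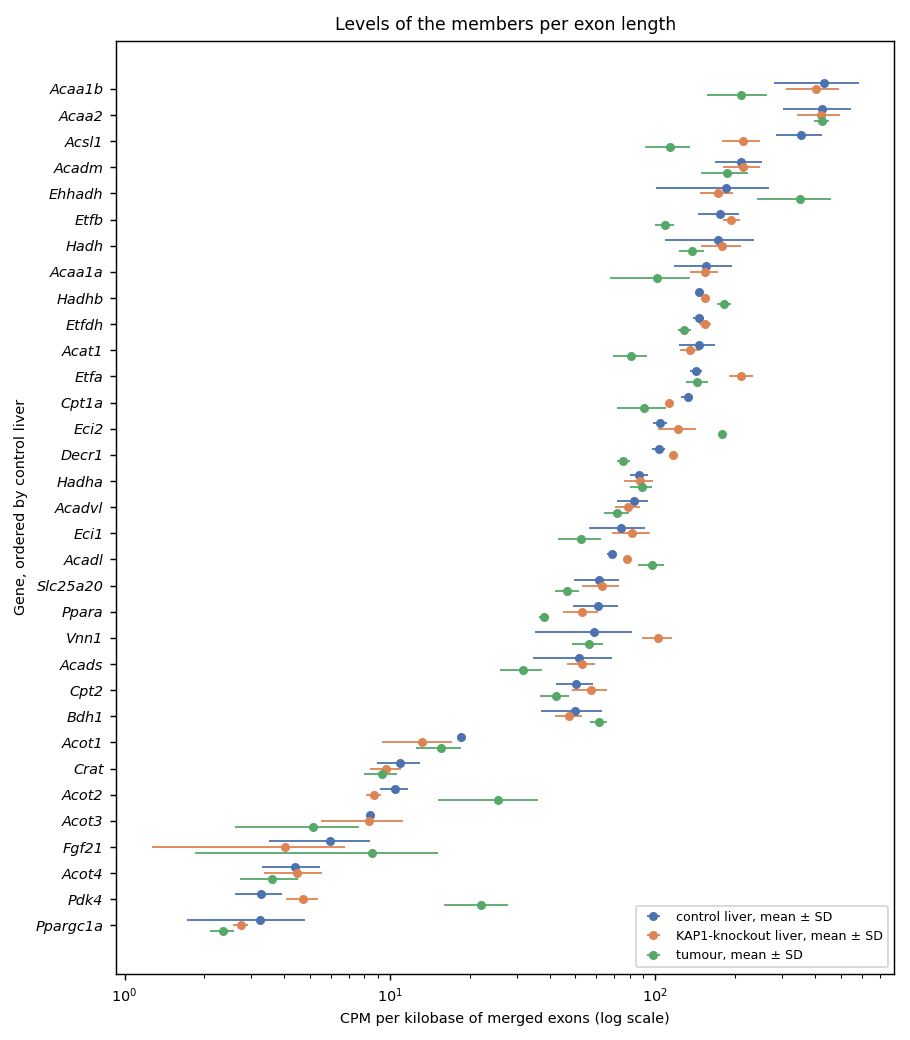
Level of each of the 33 genes in CPM per kilobase of merged exons (log axis), ordered by control liver. Points are means of 2 libraries and bars are SDs; Ehhadh ranks 2 in tumour against 5 in control liver, and Acsl1 10 against 3.

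Replicates differed in a direction that most of the members shared. In KAP1-knockout liver, 28 of the 33 were higher in the library of mouse 2 than in that of mouse 1, against 49.0% of the 17558 genes tested. The median log2 ratio of mouse 2 over mouse 1 was 0.25 for the members and -0.01 for all genes. In tumour the order was the other way, and only 2 of the 33, Acaa2 and Vnn1, were higher in mouse 2, against 49.7% of all genes, with a median log2 ratio of -0.26. In control liver 23 of the 33 were higher in library 2, against 50.5% of all genes. The log2 ratio of tumour over liver was greater in mouse 1 than in mouse 2 in 30 of the 33, against 48.9% of all genes. Its median over the members was -0.13 in mouse 1 and -0.53 in mouse 2, while over all genes tested it was -0.05 and -0.03. Each such figure rests on 1 pair of libraries, and no test was made of it.

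**Figure D2:**
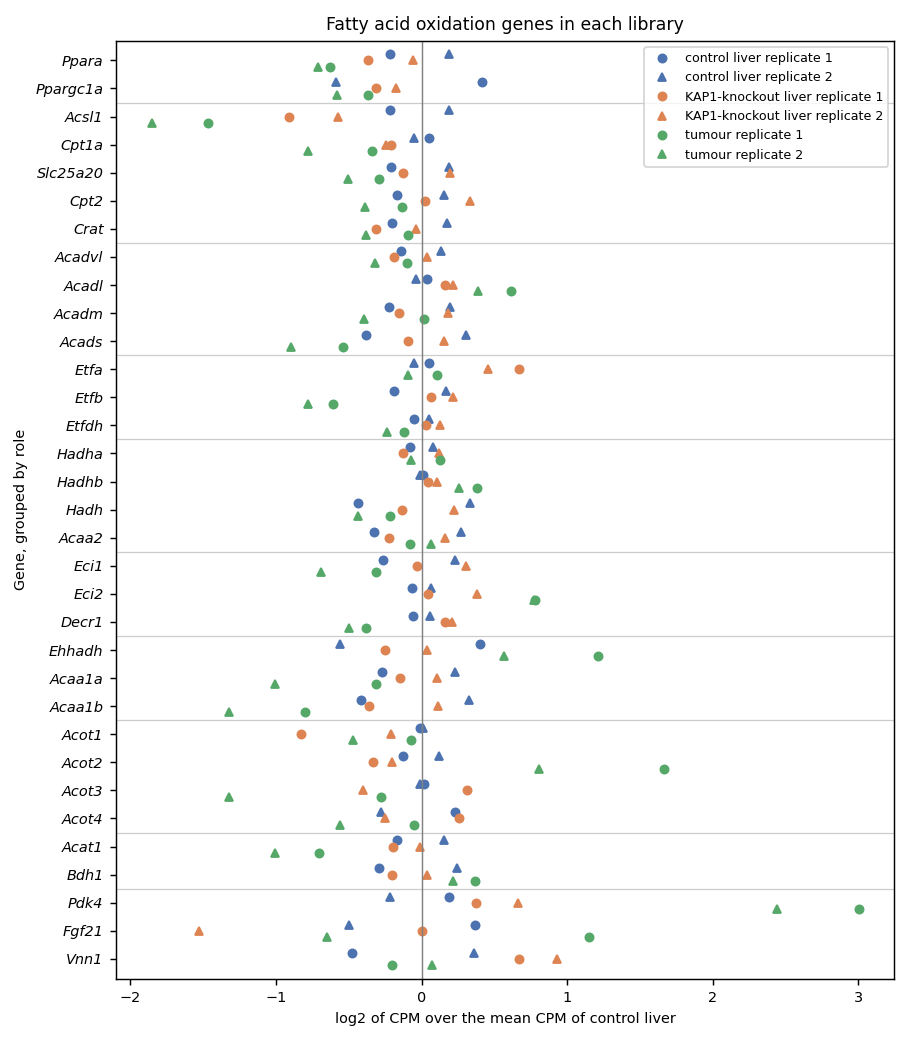
Each library's CPM over the mean CPM of control liver, on a log2 scale, for the 33 genes grouped by role. Circles are replicate 1 and triangles replicate 2; in most genes the tumour triangle lies to the left of the tumour circle, and both tumours lie far to the right in Pdk4 and Acot2 and to the left in Acsl1.

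KAP1-knockout liver was compared with control liver, outside tumours. By the mouse codes, both KAP1-knockout livers came from mice that also gave a tumour sample, and no control mouse did. Loss of hepatic KAP1 and bearing a tumour therefore cannot be told apart in this comparison. None of the 33 genes passed the threshold (edgeR adjusted p under 0.05), where 0.336% of all genes tested were called. DESeq2 called 0 of them, where it called 0.866% of all genes higher and 0.444% lower, and limma-voom called 0, where it called 0.0911% and 0.0626%. edgeR called 0.239% of all genes higher and 0.0968% lower. An unadjusted p under 0.05 was found for 3 members (9.09%), against 5.44% of all genes. The median log2 fold change of the members was 0.00, as it was over all genes, and every one of the 33 differed by less than 2-fold. The groups did not overlap in 10 members, with 6 higher and 4 lower in KAP1-knockout liver (18.2% and 12.1% of the members, against 16.7% and 14.6% of all genes).

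The 3 genes with an unadjusted p under 0.05 were Vnn1, Acsl1 and Etfa. Vnn1, a pantetheinase and a PPAR-alpha target, measured 102 and 181 CPM in control livers 1 and 2, 225 and 269.8 CPM in KAP1-knockout livers 1 and 2, and 123 and 149 CPM in tumours 1 and 2. Both KAP1-knockout livers were above the other 4 libraries, by a log2 fold change of 0.81 ± 0.29 (SE) over control liver (edgeR adjusted p = 0.698). Etfa, the alpha subunit of the electron transfer flavoprotein, showed the same order. It measured 206 and 191 CPM in control, 315 and 272 CPM in KAP1-knockout liver and 214 and 187 CPM in tumour (log2 fold change 0.56 ± 0.19 between the livers, edgeR adjusted p = 0.647). Acsl1 measured 1276 and 1684 CPM in control liver and 788 and 994 CPM in KAP1-knockout liver (log2 fold change -0.73 ± 0.27, edgeR adjusted p = 0.756). None of the 3 was called once the p-values were adjusted over the 17558 genes tested.

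Tumours were compared with the KAP1-knockout liver of the same mice, and also with control liver. These comparisons share the tumour libraries, so they are not separate evidence. Against KAP1-knockout liver, 2 of the 33 members rose and 1 fell (9.09%), where 11.4% of all genes tested were called. Against control liver, 3 rose and 2 fell (15.2%), where 13.9% of all genes were called. DESeq2 and a fit blocked by mouse, given below, called more members and more of all genes. In the edgeR fit of 3 group means, the shares of 9.09% and 15.2% were near the background. The median log2 fold change of the members was -0.31 against KAP1-knockout liver and -0.26 against control liver, beside -0.03 and -0.02 over all genes. With total counts in place of TMM scaling the members' medians were 0.24 and 0.22, beside 0.50 and 0.45 over all genes, so that only the distance from other genes kept its sign. Against KAP1-knockout liver, 17 members were lower with no overlap between the groups and 7 higher (51.5% and 21.2%), against 34.8% and 28.7% of all genes. Against control liver, 14 were lower and 6 higher without overlap (42.4% and 18.2%), against 29.9% and 26.5% of all genes. Within the mice, 19 members were lower in tumour than in liver in both mice, 8 were higher in both, and 6 differed in direction between the mice. Of all 17558 genes tested, 6971 (39.7%) were lower in both, 6123 were higher in both and 4464 differed in direction.

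limma-voom called the same members as edgeR in both tumour comparisons, where it called 4.64% of all genes higher and 6.91% lower against KAP1-knockout liver and 5.92% and 7.64% against control liver. DESeq2 called 4 members higher and 4 lower against KAP1-knockout liver (7.14% and 9.03% of all genes), and 4 and 5 against control liver (8.3% and 9.84%). Beyond edgeR's calls these were Eci2 and Ehhadh among the rises and Acsl1, Decr1 and Acat1 among the falls against KAP1-knockout liver. Against control liver they were Acadl among the rises and Ppara, Etfb and Acaa1b among the falls. Only KAP1-knockout liver and tumour share mice, and when blocked by mouse 4 members rose and 7 fell between tumour and KAP1-knockout liver, where 8.95% and 13.2% of all genes were called higher and lower. That fit has 1 residual degree of freedom. The genes added were Ehhadh and Fgf21 among the rises and Acsl1, Acads, Acaa1b, Acot3, Acat1 and Vnn1 among the falls. A block by the 2 series of mouse codes, which spans all 3 groups, gave 3 rises and 2 falls against KAP1-knockout liver (6.81% and 9.89% of all genes) and 3 and 3 against control liver (8.16% and 10.5%). With knockout liver 1 or 2 left out, 1 and 2 members rose and none fell, while the calls over all genes were 338 and 295 higher and 496 and 345 lower. With tumour 1 or 2 left out, again 1 and 2 rose and none fell, beside 472 and 520 genes higher and 265 and 664 lower. With control liver 1 or 2 left out, which enter the estimate of spread, 3 and 3 rose and 6 and 4 fell, beside 1031 and 1093 genes higher and 1684 and 1534 lower. Against control liver, rises and falls numbered 2 and 6 without control liver 1, and 1 and 2 without control liver 2. They numbered 2 and 1 without either knockout liver, 1 and 1 without tumour 1, and 2 and 0 without tumour 2. Over all genes, rises and falls against control liver were 998 and 1623 without control liver 1 and 696 and 733 without control liver 2. They were 876 and 1034 without knockout liver 1, 884 and 1038 without knockout liver 2, 663 and 440 without tumour 1, and 680 and 719 without tumour 2.

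**Figure D3:**
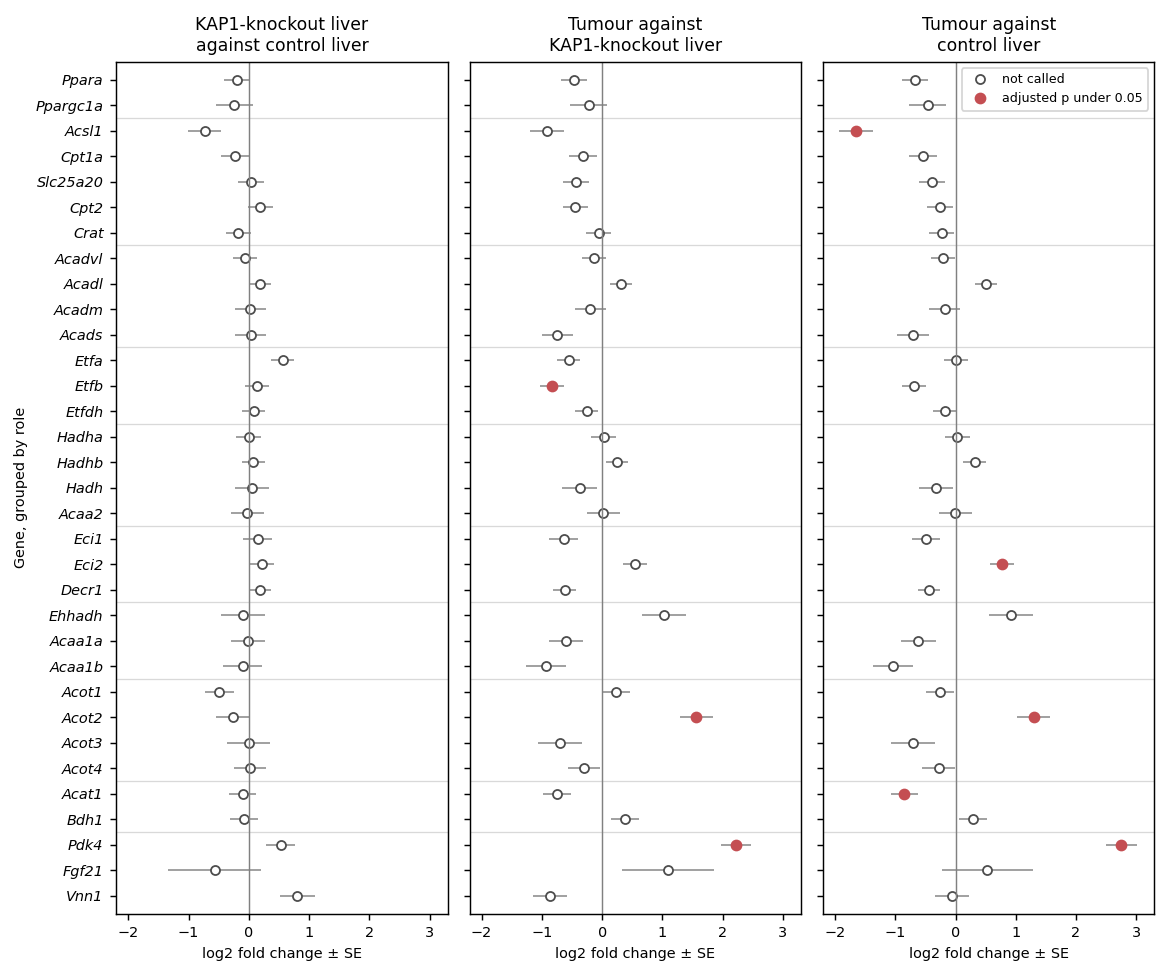
Log2 fold change ± SE of each of the 33 genes in the 3 comparisons, from edgeR, grouped by role. Filled points have an adjusted p under 0.05; none is filled for KAP1-knockout against control liver, 3 are in tumour against KAP1-knockout liver and 5 in tumour against control liver.

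Pdk4, a kinase that shuts pyruvate dehydrogenase and so spares glucose when fat is burned, showed the clearest change. It measured 13.0 and 9.78 CPM in the control livers, 14.8 and 18.0 CPM in the KAP1-knockout livers and 91.3 and 61.7 CPM in the tumours. Both tumours lay above all 4 livers. Pdk4 rose 4.67-fold against KAP1-knockout liver (log2 fold change 2.22 ± 0.25, edgeR adjusted p = 0.00278) and 6.73-fold against control liver (log2 fold change 2.75 ± 0.26, edgeR adjusted p = 0.0011). It kept its call under all 17 alternatives of the first comparison and all 16 of the second. The log2 ratio of tumour over liver was 2.63 in mouse 1 and 1.78 in mouse 2.

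Of the other PPAR-alpha targets, Fgf21, a hormone that liver secretes in fasting, was low and variable. Its counts were 254 and 237 in control liver, 250 and 93 in KAP1-knockout liver and 914 and 190 in tumour. In CPM these were 7.33 and 4.02, 5.68 and 1.97, and 12.6 and 3.62. The groups overlapped, since tumour 2 lay below KAP1-knockout liver 1 (log2 fold change 1.09 ± 0.77 against KAP1-knockout liver, edgeR adjusted p = 0.403). Within each mouse the tumour was the higher sample, by a log2 ratio of 1.15 in mouse 1 and 0.88 in mouse 2, and the adjusted p was 0.00615 when blocked by mouse. Without tumour 1 the log2 fold change was -0.081. Vnn1 was lower in both tumours than in both KAP1-knockout livers (log2 fold change -0.86 ± 0.29, edgeR adjusted p = 0.0926, and 0.00886 when blocked by mouse). Against control liver its log2 fold change was -0.06 ± 0.29 (edgeR adjusted p = 0.915).

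Acyl-CoA thioesterases hydrolyse acyl-CoA back to free fatty acid and CoA. Acot1, in the cytosol, Acot2, in mitochondria, and Acot3 and Acot4, in peroxisomes, all lie on chromosome 12. With the filter and 3 group means, edgeR called 1 of the 4 in tumour. Acot2 measured 20.96 and 24.9 CPM in control liver, 18.2 and 19.9 CPM in KAP1-knockout liver and 72.6 and 40.1 CPM in tumour. Both tumours were above all livers, and tumour 1 was well above tumour 2. Acot2 rose 2.95-fold against KAP1-knockout liver (log2 fold change 1.56 ± 0.28, edgeR adjusted p = 0.0136) and 2.46-fold against control liver (log2 fold change 1.30 ± 0.28, edgeR adjusted p = 0.0216). Its adjusted p against KAP1-knockout liver was 0.0551 without knockout liver 1 and 0.0511 without tumour 1 (1.1e-09 to 0.0551 across the alternatives). Against control liver it was 0.0862 and 0.0774 with control liver 1 or 2 left out and 0.0863 without tumour 1 (7.1e-07 to 0.0863 across the alternatives). Of the stretches of 31 bases in the annotated exons of Acot2, 62.7% occur in no other gene, and Acot1 shares the most, so its value is uncertain.

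Acot1 measured 42.0 and 42.5 CPM in control liver, 23.8 and 36.5 CPM in KAP1-knockout liver and 40.1 and 30.5 CPM in tumour. Acot3 measured 29.1 and 28.6, 35.7 and 21.8, and 23.8 and 11.5 CPM in the same order of groups, and Acot4 32.0 and 22.5, 32.5 and 22.8, and 26.2 and 18.5 CPM. With the filter and 3 group means of all 6 libraries, edgeR called none of these 3 in any comparison. Against KAP1-knockout liver their log2 fold changes were 0.23 ± 0.24 for Acot1, -0.70 ± 0.36 for Acot3 and -0.31 ± 0.27 for Acot4 (edgeR adjusted p 0.563, 0.247 and 0.487). When blocked by mouse, Acot3 had an adjusted p of 0.0118. With no filter on low counts edgeR called Acot3 lower in both tumour comparisons (edgeR adjusted p = 0.0162 against control liver). Acot2 made up 16.5% to 21.0% of the summed CPM of the 4 genes in the livers, and 44.6% and 39.8% in tumours 1 and 2.

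The bases before the start sites of Pdk4 and Acot2, the members that rose in both tumour comparisons, are shown with those of the members that hold a half-site of PPAR-type receptors. The sequences are RefSeq's on GRCm38.p6, read on the gene's strand, and 28 of the 33 members matched, with 31 start sites. In 25 of the 31 the bases after the start also occurred in an annotated transcript of the gene, and all 31 were kept. The letters AGGTCA were searched on both strands of the 250 bases before each start. They were found in 4 of the 31 member windows, before Acadm, Acadvl, Acot4 and Cpt1a, and in 14.0% of 32851 such windows of all genes. The spaced pair AGGNCANAGGNCA was found before 0 members and in 0.338% of all windows. Capitals mark the half-site, written as TGACCT where it lies on the other strand, and the windows of Pdk4 (chr6:5496279-5496528, minus strand) and Acot2 (chr12:83987611-83987860, plus strand) hold none. edgeR called none of the 4 genes with a half-site in a comparison. A match is a description of letters and not a site.
Pdk4: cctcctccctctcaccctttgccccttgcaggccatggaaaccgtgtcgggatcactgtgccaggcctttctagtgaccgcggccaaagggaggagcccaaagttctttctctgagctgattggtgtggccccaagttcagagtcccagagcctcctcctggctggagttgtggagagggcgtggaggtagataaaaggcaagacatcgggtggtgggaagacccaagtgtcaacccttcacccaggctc
Acot2: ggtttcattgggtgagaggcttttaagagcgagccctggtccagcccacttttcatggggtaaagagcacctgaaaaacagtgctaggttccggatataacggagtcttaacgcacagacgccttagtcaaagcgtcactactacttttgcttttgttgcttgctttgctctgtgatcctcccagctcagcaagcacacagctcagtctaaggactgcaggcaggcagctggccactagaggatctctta
Acadm (chr3:153944867-153944893, minus strand): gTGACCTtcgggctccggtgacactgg
Acadvl (chr11:70015490-70015535, minus strand): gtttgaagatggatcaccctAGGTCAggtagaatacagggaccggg
Acot4 (chr12:84038346-84038378, plus strand): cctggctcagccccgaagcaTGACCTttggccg
Cpt1a (chr19:3323187-3323232, plus strand): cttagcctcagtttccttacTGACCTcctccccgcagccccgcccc

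**Figure D4:**
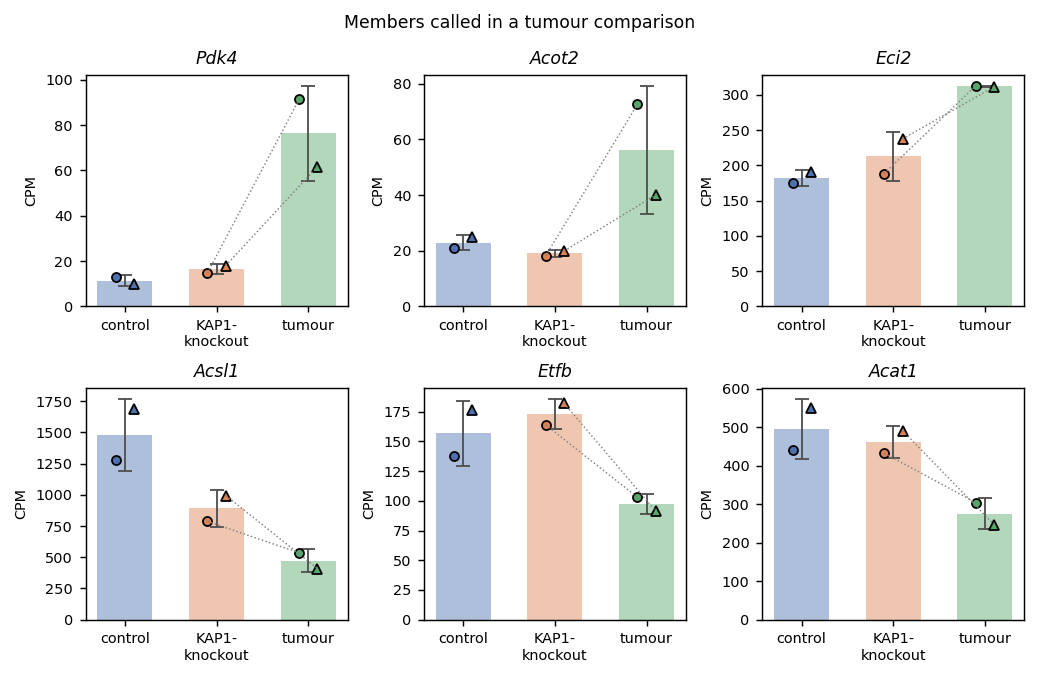
CPM in each library of the 6 genes called in at least 1 tumour comparison. Bars are means ± SD of 2 libraries, circles replicate 1, triangles replicate 2, and dotted lines join liver and tumour of a mouse; both tumours lie above all livers in Pdk4, Acot2 and Eci2 and below all livers in Acsl1, Etfb and Acat1.

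edgeR did not call the receptor or its co-activator. Ppara measured 185 and 245 CPM in control liver, 167 and 206 CPM in KAP1-knockout liver and 139 and 131 CPM in tumour, so that both tumours lay below all livers. Its log2 fold change was -0.47 ± 0.21 against KAP1-knockout liver (edgeR adjusted p = 0.196, and 0.070 in log2 fold change with total counts) and -0.67 ± 0.22 against control liver (edgeR adjusted p = 0.0785). DESeq2 called the latter fall (adjusted p = 0.0481, log2 fold change -0.64), and edgeR did so without control liver 1 (adjusted p = 0.0357) and with no filter on low counts (adjusted p = 0.0452). Ppargc1a measured 28.0 and 14.0, 16.9 and 18.6, and 16.3 and 14.1 CPM. Its tumours overlapped with the control livers, of which library 1 was the highest of all 6. Against control liver the log2 fold change of Ppargc1a was -0.46 with all 6 libraries. It was -0.89 without control liver 2 and 0.10 without control liver 1.

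Among the genes of fatty acid activation and entry, Acsl1 was the one that edgeR called. It measured 536 and 409 CPM in tumour, below both KAP1-knockout livers, which in turn lay below both control livers. Acsl1 fell 3.13-fold against control liver (log2 fold change -1.65 ± 0.28, edgeR adjusted p = 0.00937). The adjusted p was 0.0582 without tumour 2 (5.5e-08 to 0.0582 across the alternatives). Against KAP1-knockout liver the log2 fold change was -0.91 ± 0.27 (edgeR adjusted p = 0.0705, and 0.0475 when blocked by mouse). DESeq2 called that fall, and edgeR did so with no filter on low counts and with only the 4 libraries compared. With limma-voom and under the other scalings it was not called. Cpt1a, which makes the carnitine esters and is the controlled step of the pathway, measured 592 and 549.8 CPM in control liver, 494 and 482 CPM in KAP1-knockout liver and 451 and 333 CPM in tumour. The 3 groups did not overlap, yet no comparison was called (log2 fold change -0.54 ± 0.23 between tumour and control liver, edgeR adjusted p = 0.156). Slc25a20, the carnitine carrier, Cpt2, which reforms acyl-CoA inside, and Crat, for short chains, were not called by edgeR either. Against KAP1-knockout liver their log2 fold changes were -0.44 ± 0.21, -0.45 ± 0.21 and -0.06 ± 0.21, and 0.10, 0.094 and 0.48 with total counts.

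With TMM scaling, the filter and 3 group means of all 6 libraries, edgeR called none of the 4 acyl-CoA dehydrogenases in any comparison. These enzymes take the first electrons from chains of different length, and they did not share a direction. Acadl, for long chains, measured 135 and 128 CPM in control liver, 147 and 152 CPM in KAP1-knockout liver and 201 and 171 CPM in tumour. Its groups did not overlap, and tumour was highest (log2 fold change 0.50 ± 0.18 against control liver, edgeR adjusted p = 0.104), a rise that DESeq2 called (log2 fold change 0.54, adjusted p = 0.0353). With total counts Acadl was called higher in both tumour comparisons. Acads, for short chains, measured 74.2 and 119 CPM in control, 90.7 and 108 CPM in KAP1-knockout liver and 66.7 and 51.9 CPM in tumour. Both tumours were below all livers (log2 fold change -0.74 ± 0.26 against KAP1-knockout liver, edgeR adjusted p = 0.105, and 0.0198 when blocked by mouse). The edgeR adjusted p of Acads was also 0.0325 and 0.0382 with control liver 1 or 2 left out, 0.0421 with only the 4 libraries compared and 0.0173 with no filter on low counts. Acadm measured 369 and 493, 388 and 488, and 435 and 327 CPM, and its 3 groups overlapped. Acadvl, for very long chains, ranged from 144 CPM in tumour 2 to 197 CPM in control liver 2.

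Electrons from these enzymes pass through the electron transfer flavoprotein, of the subunits encoded by Etfa and Etfb, to the dehydrogenase encoded by Etfdh. Etfb measured 137 and 176 CPM in control liver, 164 and 182 CPM in KAP1-knockout liver and 103 and 91.3 CPM in tumour. Both tumours were below all livers. Etfb fell 1.78-fold against KAP1-knockout liver (log2 fold change -0.83 ± 0.20, edgeR adjusted p = 0.0356). With knockout liver 1 or 2 left out its adjusted p was 0.102 and 0.211, and with tumour 1 or 2 left out it was 0.116 and 0.157 (0.00595 to 0.343 across the alternatives). Against control liver its adjusted p was 0.0564. Only 50.1% of the 31-base stretches of Etfb occur in no other gene of the reference, the most being shared with Gm45233, so its value is uncertain. Etfa had a log2 fold change of -0.56 ± 0.19 against KAP1-knockout liver and of 0.01 ± 0.19 against control liver (edgeR adjusted p 0.104 and 0.982). Etfdh measured 339 and 364, 359 and 385, and 323 and 298 CPM.

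The subunits of the trifunctional protein, which carries out the remaining steps on long chains, were not called by edgeR with TMM scaling in any comparison. Hadha, its alpha subunit, measured 331 and 369.7 CPM in control liver, 320.0 and 381 CPM in KAP1-knockout liver and 381 and 333 CPM in tumour. The groups overlapped, and the log2 fold changes were 0.00 ± 0.21 between the livers and 0.03 ± 0.21 for tumour against either liver group. Hadhb, the beta subunit, measured 306 and 301 CPM, 313 and 327 CPM, and 395 and 363 CPM. Its groups did not overlap, with the tumours highest, but the difference was not called (log2 fold change 0.25 ± 0.19 against KAP1-knockout liver, edgeR adjusted p = 0.427). With total counts it was called (edgeR adjusted p = 0.0294 against KAP1-knockout liver and 0.0284 against control liver). Hadhb shares 31-base stretches with Gm13910, and 76.7% of its own occur in no other gene. Hadh, the short-chain hydroxyacyl-CoA dehydrogenase, had a log2 fold change of -0.38 ± 0.28 and Acaa2 of 0.01 ± 0.27 against KAP1-knockout liver, neither called.

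The 3 auxiliary enzymes, which handle the double bonds of unsaturated chains, did not share a direction. With TMM scaling edgeR called Eci2 alone, against control liver, and with total counts in both tumour comparisons. Eci2, an enoyl-CoA isomerase of mitochondria and peroxisomes, measured 175 and 190.4 CPM in control liver, 188 and 238 CPM in KAP1-knockout liver and 313 and 312 CPM in tumour. Both tumours were above all livers and nearly equal. Eci2 rose 1.71-fold against control liver (log2 fold change 0.78 ± 0.20, edgeR adjusted p = 0.0398). Its adjusted p was 0.0941 and 0.0814 with control liver 1 or 2 left out, 0.0782 and 0.0752 with knockout liver 1 or 2 left out, and 0.135 and 0.129 with tumour 1 or 2 left out (0.00186 to 0.135 across the alternatives). With only the 4 libraries compared it was 0.0746. Against KAP1-knockout liver the log2 fold change was 0.55 ± 0.20 (edgeR adjusted p = 0.113). Eci1, the mitochondrial isomerase, measured 77.1 and 59.5 CPM in tumour and 79.7 to 118 CPM in the livers (log2 fold change -0.64 ± 0.24 against KAP1-knockout liver, edgeR adjusted p = 0.124). Decr1, the dienoyl-CoA reductase, measured 233 and 216 CPM in tumour and 292 to 352 CPM in the livers (log2 fold change -0.62 ± 0.19 against KAP1-knockout liver, edgeR adjusted p = 0.071). DESeq2 called Decr1 lower there (log2 fold change -0.57, adjusted p = 0.0153).

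Of the peroxisomal enzymes none was called by edgeR, and they did not share a direction. DESeq2 called Ehhadh higher against KAP1-knockout liver (adjusted p = 0.0257) and Acaa1b lower against control liver (adjusted p = 0.0198). With total counts edgeR called Ehhadh higher in both tumour comparisons. It did so too with no filter on low counts, where it also called Acaa1b lower in both. With only the 4 libraries compared, edgeR called Ehhadh higher against KAP1-knockout liver, while limma-voom did not call it. Ehhadh, the peroxisomal bifunctional enzyme, measured 727 and 373 CPM in control liver, 461 and 565 CPM in KAP1-knockout liver and 1272 and 816 CPM in tumour. Both tumours were above all livers, with a fold change of 2.04 against KAP1-knockout liver (log2 fold change 1.03 ± 0.37, edgeR adjusted p = 0.111, and 0.0316 when blocked by mouse). The thiolase Acaa1b measured 547 and 914 CPM in control liver, 570.1 and 789 CPM in KAP1-knockout liver and 419 and 292 CPM in tumour. Both tumours were below all livers (log2 fold change -0.94 ± 0.33 against KAP1-knockout liver, edgeR adjusted p = 0.106, and 0.0397 when blocked by mouse). Against control liver its log2 fold change was -1.04 ± 0.33 (edgeR adjusted p = 0.0747). Its near copy Acaa1a measured 227 and 322, 248 and 295, and 221 and 137 CPM. In the reference 59.99% of the 31-base stretches of Acaa1b and 81.9% of those of Acaa1a occur in no other gene, so their split is uncertain. Summed, the pair measured 775 and 1236 CPM in control liver, 818 and 1084 CPM in KAP1-knockout liver and 640 and 428 CPM in tumour, with 65.4% to 73.9% from Acaa1b in every library.

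Of the ketone body enzymes, Acat1, the mitochondrial thiolase that condenses acetyl-CoA, measured 440.2 and 551 CPM in control liver, 433 and 492 CPM in KAP1-knockout liver and 304 and 247 CPM in tumour. Both tumours were below all livers. Acat1 fell 1.80-fold against control liver (log2 fold change -0.85 ± 0.23, edgeR adjusted p = 0.0459). That call was lost without control liver 2 (0.149), with knockout liver 1 or 2 left out (0.083 and 0.0801) and with tumour 1 or 2 left out (0.0989 and 0.196), and spanned 0.00502 to 0.295 across the alternatives. It was also lost with DESeq2 size factors (0.0535), upper-quartile scaling (0.0575), total counts (0.295) and only the 4 libraries compared (0.0851). Against KAP1-knockout liver the log2 fold change was -0.75 ± 0.23 (edgeR adjusted p = 0.0737, and 0.0471 when blocked by mouse). Bdh1, which reduces acetoacetate to hydroxybutyrate, measured 149 and 215, 158 and 187, and 235 and 212 CPM. Both tumours were above both KAP1-knockout livers, but tumour 2 was below control liver 2 (log2 fold change 0.37 ± 0.23 against KAP1-knockout liver, edgeR adjusted p = 0.322, and 0.0331 with total counts).

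The direction of 11 members against KAP1-knockout liver and of 13 against control liver depended on the scaling. Total counts without TMM factors moved the median log2 fold change of all genes from -0.03 to 0.50 against KAP1-knockout liver and from -0.02 to 0.45 against control liver. Members below 0 then numbered 11 in place of 22 against KAP1-knockout liver, and 10 in place of 23 against control liver. Members called higher numbered 7 and lower 0 against KAP1-knockout liver, where 24.6% and 2.96% of all genes were called. Against control liver 6 were called higher and 1 lower, where 22.6% and 3.57% were. Among all calls, the share that was higher went from 42.0% to 89.2% and from 44.2% to 86.4%. The distance of the members' median from that of all genes moved little with this scaling, from -0.27 to -0.26 against KAP1-knockout liver and from -0.24 to -0.23 against control liver. It moved more when single libraries were left out. Against KAP1-knockout liver the distance was -0.43 without tumour 1 and -0.08 without tumour 2. Against control liver it was -0.41 without control liver 1 and -0.06 without control liver 2. Pdk4 and Acot2 were called higher and Acsl1 lower against control liver under each of the 4 scalings, and Etfb and Acat1 kept a log2 fold change below 0 under each.

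**Figure D5:**
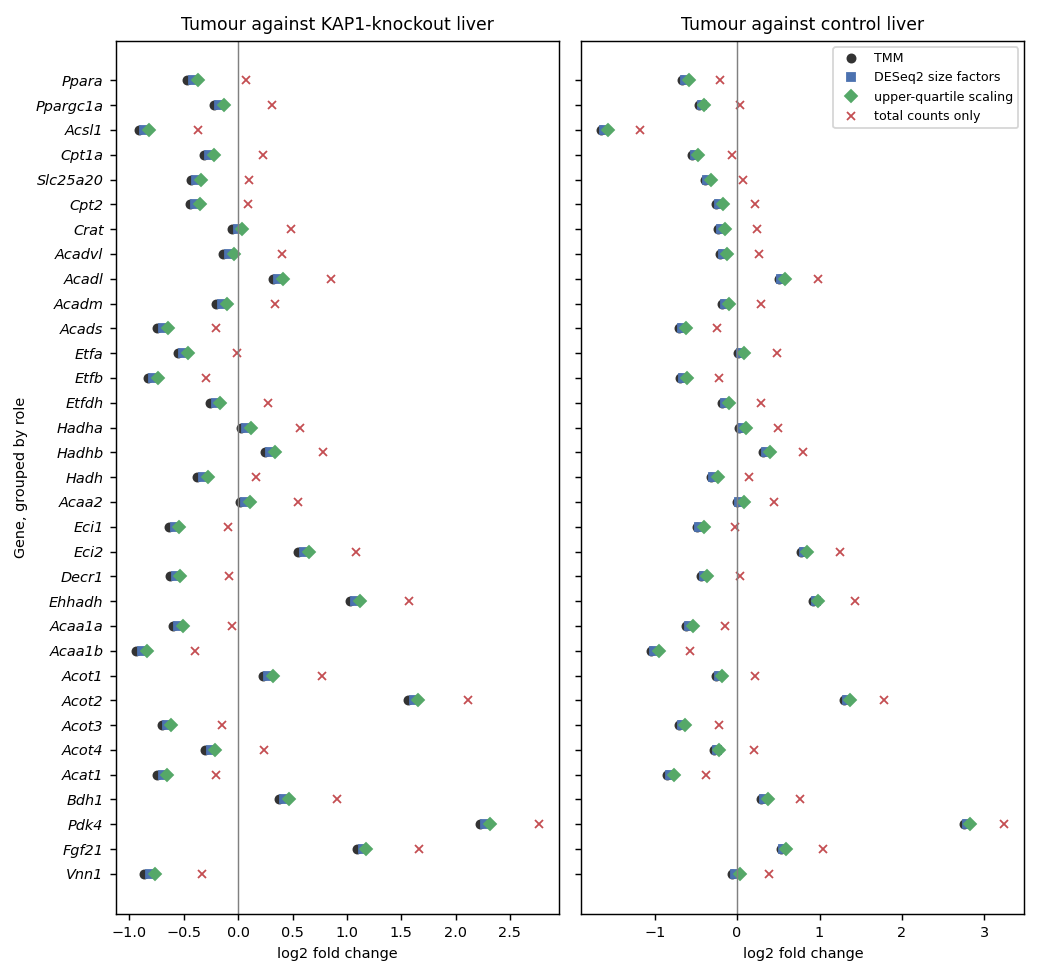
Log2 fold change of the 33 genes in the tumour comparisons under 4 ways of scaling the libraries. TMM, DESeq2 size factors and upper-quartile scaling lie close together, and total counts shift every gene up by about the same amount.

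Of the other genes of these pathways, 102 in 6 lists, more fell than rose in tumour with TMM scaling, while with total counts 17 rose and 2 fell against KAP1-knockout liver and 17 and 3 against control liver. In KAP1-knockout against control liver 0 passed edgeR's threshold, 2 had an unadjusted p under 0.05, limma-voom called 0 and DESeq2 called 1. With TMM scaling 3 rose and 13 fell against KAP1-knockout liver, and against control liver 5 rose and 13 fell, where 4.8% and 6.64%, and 6.15% and 7.76%, of all genes were called. Their median log2 fold change was -0.36 and -0.32. The counts ranged from 1 to 7 higher and 2 to 28 lower against KAP1-knockout liver, and from 3 to 7 and 5 to 21 against control liver, when each library was left out in turn. When blocked by mouse 7 rose and 31 fell. Against control liver the 5 that rose were Acot9, Slc16a1, Slc16a7, Dlat and Ucp3. Slc16a7 had an adjusted p of 0.074 without tumour 1, Dlat of 0.0729 and 0.0533 without tumours 1 and 2 in turn, and Ucp3, which stayed under 1 CPM in every library, of 0.0614 without control liver 2 and 0.0848 without tumour 1.

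Among 18 other peroxisomal genes, 2 fell against KAP1-knockout liver. Among them Hacl1, a lyase of branched-chain oxidation, had an adjusted p of 0.0334, and of 0.113 to 0.146 with any one library of the comparison left out. In the list of pyruvate dehydrogenase control, Pdk1 and Pdk2, relatives of Pdk4, both fell, Pdk2 with an adjusted p of 0.0314 that was 0.207 without KAP1-knockout liver 2, 0.136 without tumour 1 and 0.13 without tumour 2. Pdk1 measured 84.0 and 97.8 CPM in KAP1-knockout liver and 24.9 and 34.1 CPM in tumour (log2 fold change -1.62 ± 0.21, edgeR adjusted p = 0.00419), opposite to Pdk4, and kept its call under all 17 alternatives.

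Of 22 other mitochondrial genes, 1 rose and 3 fell against KAP1-knockout liver. The 3 were Hsd17b10, Pccb and Mcee, whose adjusted p reached 0.086, 0.216 and 0.288 without KAP1-knockout liver 2. The one that rose was Acot9, a mitochondrial thioesterase, at 7.36 and 6.19 CPM in KAP1-knockout liver and 18.2 and 17.8 CPM in tumour (log2 fold change 1.41 ± 0.18, edgeR adjusted p = 0.00475), with all 17 alternatives keeping the call. Of 6 other ketone body genes, 1 rose and 1 fell against KAP1-knockout liver. The one that rose was Slc16a1, a carrier of lactate and ketone bodies. Slc16a1 measured 40.1 and 48.1 CPM in control liver and 137 and 109 CPM in tumour (log2 fold change 1.48 ± 0.19, edgeR adjusted p = 0.00337 against control liver), and that call held under all 16 alternatives. Against KAP1-knockout liver its adjusted p was 0.0116, but 0.0599, 0.0781 and 0.0691 without KAP1-knockout livers 1 and 2 and tumour 1 in turn.

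Of 29 other PPAR-alpha targets, 1 rose and 3, Vnn3, Retsat and G0s2, fell against KAP1-knockout liver. All 4 lost their call with some single library left out, with adjusted p up to 0.169 for Vnn3, 0.166 for Retsat and 0.0842 for G0s2, each without tumour 2. The one that rose was Cyp4a31, of the fatty acid hydroxylases that are classic targets of the receptor, at 77.2 and 29.6 CPM in control liver, 35.3 and 37.6 CPM in KAP1-knockout liver and 257 and 140 CPM in tumour. Both tumours were above all livers, but with TMM scaling and all 6 libraries edgeR did not call Cyp4a31 against control liver. Against KAP1-knockout liver its log2 fold change was 2.44 ± 0.50 (edgeR adjusted p = 0.029). With KAP1-knockout liver 1 or 2 left out its adjusted p was 0.217 and 0.26, and with tumour 1 left out 0.086. Of its 31-base stretches 68.0% occur in no other gene, and Cyp4a32 shares the most, so its value is uncertain. G0s2, an inhibitor of the lipase that releases fatty acids from droplets, measured 294 and 224 CPM in control liver, 238 and 185 CPM in KAP1-knockout liver and 96.8 and 64.9 CPM in tumour. It fell against control liver (log2 fold change -1.68 ± 0.27, edgeR adjusted p = 0.00762) and kept that call under all 16 alternatives. Of 17 receptors and cofactors 0 rose and 2 fell against KAP1-knockout liver. They were Esrra, an orphan receptor that works with Ppargc1a, and Rxrg, a partner of PPAR-alpha (log2 fold changes -0.99 ± 0.21 and -1.37 ± 0.34, edgeR adjusted p 0.0224 and 0.0415). Both calls were lost with any one library of the comparison left out, with adjusted p from 0.0577 to 0.131 for Esrra and from 0.0521 to 0.209 for Rxrg. Rxra, the main partner in liver, measured 200 and 261 CPM in control liver, 159 and 198 CPM in KAP1-knockout liver and 130 and 114 CPM in tumour. It fell against control liver (log2 fold change -0.92 ± 0.22, edgeR adjusted p = 0.0312), with adjusted p 0.101 without control liver 2, 0.101 without tumour 1 and 0.151 without tumour 2.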

How the data were processed

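The deposited tables hold raw counts of reads per Ensembl gene, 1 per library. Per the submitters' processing notes, HTSeq 0.6.1 and TopHat (version not given in the sources used here) were used, with genome build mm9. Per the labels' protocols, the kit was a stranded TruSeq one. Which annotation and strand setting the counting used was not given in the sources used here, so overlapping and antisense genes are uncertain. All 6 libraries carry 1 batch label. Identifiers were matched to symbols of GENCODE M21 (GRCm38), which also gave merged exon lengths (basic set) and, as a measure of shared sequence, the percent of 31-base stretches found in no other gene. 1 of 219 listed genes, a hepatocyte marker, had no match. Entries that name no gene held 20.9% to 27.6% of the reads in livers and 33.1% and 36.7% in tumours and were left out.

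edgeR 4.0.16 (R 4.3.3) was run as follows: filterByExpr by group (minimum count 10, minimum total 15), TMM scaling, and a robust quasi-likelihood fit of 3 group means to all 6 libraries with 3 residual degrees of freedom. Two-sided p-values were adjusted (Benjamini-Hochberg) over 17558 genes, and an adjusted p under 0.05 is a call. The SE is the log2 fold change over the square root of F. Replicate counts differed far beyond sampling noise, with 90.8 to 352 chi-square units per degree of freedom. KAP1-knockout liver and tumour of a mouse, paired by the mouse codes of the labels, deviated together from their group means, with r = 0.185 across genes, a single value with 2 mice. The mouse as a block was an alternative, beside DESeq2 1.42.0, limma-voom (limma 3.58.1), other scalings and filters, and each library left out. All 33 members and the lists were chosen with earlier results of these data known. Given per library are members called in any comparison, those without overlap and at least 2-fold different, and 7 set by their role; other members and list genes were added where they complete a group. Results for some list genes are not reported here.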

Additional observations from a re-analysis of the deposited data

How the results depend on the processing

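With 2 libraries a group, counts of calls moved with most settings. None of the 33 genes was called in KAP1-knockout against control liver under any of the 16 alternatives. Of the 102 other pathway genes, the alternatives with a call there were no filter on low counts, with 3 higher and 1 lower, DESeq2, with 1 higher, and single libraries left out, with 0 to 1 higher. The mouse codes pair knockout liver with tumour, and the replicate block by mouse, with 1 residual degree of freedom, gave 4 members higher and 7 lower and 7 and 31 other pathway genes. The replicate block by code series rests on series the labels do not explain; knockout and control livers of a series deviated together with r = 0.386 across genes. With it, 2 members and 22 other genes were lower against knockout liver, and 10 other genes were higher and 22 lower against control liver. The blocks changed no other member's call than those given above, which for the code series added Fgf21 (adjusted p = 0.042) and Vnn1 (0.0322) against knockout liver and Etfb (0.0468) against control liver.

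For tumour against knockout liver, no filter on low counts gave 4 members higher and 7 lower and 7 and 29 other pathway genes. Of the 27238 genes of that fit, 1563 were called higher and 2256 lower. DESeq2 gave 4 and 4 members and 6 and 20 other genes. A minimum mean of 5 CPM gave 5 other genes higher, and upper-quartile scaling 5 higher and 8 lower. Fitting only the 4 libraries gave 4 members lower and 7 and 21 other genes. Of the 17205 genes of that fit, 1230 were called higher and 1490 lower. Total counts gave 7 and 0 members, 17 and 2 other genes and a member median of 0.24. They turned the log2 fold change of 11 members from negative to positive: Ppara 0.070, Ppargc1a 0.32, Cpt1a 0.23, Slc25a20 0.10, Cpt2 0.094, Crat 0.48, Acadvl 0.40, Acadm 0.34, Etfdh 0.28, Hadh 0.16 and Acot4 0.24. With single libraries left out, members higher ranged from 1 to 3 and lower from 0 to 6, other genes from 1 to 7 and 2 to 28, and the member median from -0.49 to -0.13.

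For tumour against control liver, DESeq2 size factors and upper-quartile scaling each gave 1 member lower, and the latter 8 other genes higher. No filter gave 7 members lower and 12 and 28 other genes, where 1801 of 27238 genes were called higher and 2314 lower. DESeq2 gave 5 members lower and 11 and 25 other genes, and only the 4 libraries 1 member lower. In the fit of 4 libraries, 901 of 17143 genes were called higher and 996 lower. Total counts gave 6 and 1 members, 17 and 3 other genes and a member median of 0.22. They turned 13 members positive: Ppargc1a 0.033, Slc25a20 0.074, Cpt2 0.21, Crat 0.24, Acadvl 0.27, Acadm 0.29, Etfdh 0.29, Hadh 0.14, Acaa2 0.45, Decr1 0.035, Acot1 0.22, Acot4 0.21 and Vnn1 0.39. With single libraries left out, members higher ranged from 1 to 2 and lower from 0 to 6, other genes from 3 to 7 and 5 to 21, and the member median from -0.44 to -0.09.

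Leaving out single libraries also turned the sign of log2 fold changes that edgeR did not call with TMM scaling, the filter and all 6 libraries. Those that moved by more than their SE in doing so are listed, and turns within the SE are not. In knockout against control liver these ranged from -0.68 to 0.34 for Ppargc1a, -0.27 to 0.40 for Acads, -0.28 to 0.47 for Hadh, -0.52 to 0.46 for Ehhadh, -0.29 to 0.29 for Acaa2, -0.43 to 0.29 for Acaa1b, -0.32 to 0.19 for Bdh1 and -0.25 to 0.29 for Acot4. In tumour against knockout liver they ranged from -0.060 to 0.56 for Acot1 and -0.081 to 2.03 for Fgf21. In tumour against control liver they ranged from -0.89 to 0.10 for Ppargc1a, -0.67 to 0.11 for Hadh, -0.29 to 0.32 for Acaa2, -0.43 to 0.42 for Vnn1 and -0.64 to 1.15 for Fgf21. The cause of these changes was not tested.

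Over all genes, the 42 higher and 17 lower calls between the livers became 354 and 217 with no filter, 152 and 78 with DESeq2, 16 and 11 with limma-voom, 13 and 7 in the 4 libraries alone, 13 and 4 at a minimum mean of 5 CPM and 70 and 27 with the code series as block. The 842 and 1165 of tumour against knockout liver became 4317 and 520 with total counts, 1563 and 2256 with no filter, 485 and 743 at that minimum and 1571 and 2318 when blocked by mouse. The 1080 and 1363 against control liver became 3962 and 626, 1801 and 2314, and 556 and 876 with total counts, no filter and that minimum. Single libraries left out gave 20 to 64 and 8 to 20 calls, 295 to 1093 and 265 to 1684, and 663 to 998 and 440 to 1623 in the 3 comparisons. The fits with no filter tested 27238 genes and those at a minimum mean of 5 CPM 9245, in place of 17558. Between the livers, members below 0 numbered 16 with TMM scaling and 22 with total counts.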
